A study of Mus musculus with 4 samples.

Results

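The genes described here are 9 regulators of the G1 phase of the cell cycle: the D-type cyclins Ccnd1, Ccnd2 and Ccnd3, the kinases Cdk4 and Cdk6, the kinase inhibitors Cdkn1a, Cdkn1b and Cdkn2c, and the retinoblastoma gene Rb1. They were chosen by symbol, and each matched 1 of the 23847 rows in the table of FPKM (fragments per kilobase of transcript, scaled to depth). The samples were ventricular tissue of male mice of the strain C57BL/6, aged 21 days, with 2 libraries of the genotype Cdk8Tg, in which Cdk8 is overexpressed in the heart, and 2 libraries of WT. Both groups share strain, sex, age and tissue, and no source used here names the promoter that drives the transgene. Polyadenylated RNA was sequenced from stranded libraries. Whether the 4 libraries stem from 4 animals is not stated in the labels. The p-values below therefore rest on the spread among samples, part of which may be technical.

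D-type cyclins bind and activate Cdk4 and Cdk6, and these kinases phosphorylate the Rb1 protein, which otherwise holds E2F transcription factors inactive and keeps cells out of S phase. Cdkn1a and Cdkn1b belong to the Cip/Kip family of inhibitors, which act on cyclin-bound kinases, and Cdkn2c belongs to the Ink4 family, which binds Cdk4 and Cdk6 directly. In the mouse heart most cardiomyocytes leave the cell cycle soon after birth, and forced expression of D cyclins in mouse cardiomyocytes is known to permit renewed DNA synthesis.

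The transgene was visible in the libraries labelled Cdk8Tg, where Cdk8, the kinase of the Mediator complex, stood at 7309 and 8122 FPKM, against 7.89 and 9.86 FPKM in WT. The spacing of low values implied about 13380000 and 12980000 fragments for the Cdk8Tg libraries, against 15300000 and 15280000 for the WT libraries, if each library was scaled by its own fragment total. On that basis the 9 genes rested on at least 34.6 fragments per kilobase of transcript (Cdk6 in WT replicate 1) and at most 1126 (Ccnd2 in Cdk8Tg replicate 1). Libraries differed in what else they held. All 8 fibroblast markers lay higher in both Cdk8Tg libraries than in both WT libraries, as did 49.2% of all tested genes, and 6 of them rose, beside 16.9% of tested genes, with summed levels of 1115 and 1430 FPKM in Cdk8Tg and 904 and 839 FPKM in WT. All 8 cardiomyocyte markers lay lower in both Cdk8Tg libraries, as did 21.1% of tested genes, and 6 fell, beside 7.98% of tested genes (30035 and 28485 FPKM in Cdk8Tg, 47414 and 46062 FPKM in WT). The 8 endothelial markers summed to 301 and 272 FPKM in Cdk8Tg, against 310.3 and 318 FPKM in WT, and the 8 leukocyte markers to 82.8 and 105 FPKM in Cdk8Tg, against 127 and 115 FPKM in WT. The 4 atrial markers summed to 861 and 2416 FPKM in Cdk8Tg, against 669.8 and 225 FPKM in WT, mostly Nppa, which rose (780.0 and 2072 FPKM in Cdk8Tg, against 395 and 199 FPKM in WT). The other atrial markers, Myl7, Myl4 and Sln, overlapped between the groups and differed widely within each group. Myl7 was at 8.51 and 52.7 FPKM in Cdk8Tg, against 136 and 11.6 FPKM in WT. For Myl4 the values were 72.5 and 281 FPKM in Cdk8Tg, against 94.3 and 11.7 FPKM in WT. For Sln they were 0.218 and 9.93 FPKM in Cdk8Tg, against 43.8 and 2.08 FPKM in WT. Fat cell markers summed to 19.1 FPKM in Cdk8Tg replicate 2, against 0.115 FPKM in Cdk8Tg replicate 1 and 0.638 and 0.105 FPKM in WT. The 8 smooth muscle and pericyte markers summed to 643 and 893 FPKM in Cdk8Tg, against 595 and 599 FPKM in WT. Within that list Acta2 was at 317 and 513 FPKM in Cdk8Tg, against 266 and 268 FPKM in WT, while the pericyte gene Rgs5 was at 162 and 153 FPKM in Cdk8Tg, against 167 and 173 FPKM in WT. Cspg4, also in that list, was higher in both Cdk8Tg libraries, at 5.78 and 5.42 FPKM, against 5.30 and 4.02 FPKM in WT. The other markers of that list overlapped between the groups, and none of the 8 was called. The part of these shifts in the results below was not tested. In bulk ventricle, fewer cells of a type and less RNA per cell cannot be told apart.

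Of the 9 regulators, Ccnd2, Ccnd3 and Cdkn1a rose in Cdk8Tg ventricles and none fell, by limma on log2(FPKM + 1) with a p adjusted by Benjamini-Hochberg (BH) under 0.05. That is 3 of 9, set against 24.9% of the 11888 tested genes (16.9% rose and 7.98% fell). At an unadjusted p under 0.05, 6 of the 9 were higher and 0 lower in Cdk8Tg, beside 29.4% of tested genes higher and 12.3% lower. All 9 genes were higher in both Cdk8Tg libraries than in both WT libraries, an ordering that 49.2% of tested genes also showed (70.3% in either direction). The scale bears on that count, because all tested genes together had a median log2 change of 0.13 on the deposited values. After median-of-ratios scaling, which moved this median to 0.00, the groups stayed apart with Cdk8Tg higher for 5 members, beside 32.9% of tested genes (66.0% in either direction), namely Ccnd2, Ccnd3, Cdkn1a, Cdkn1b and Cdkn2c. That scale called Ccnd2 and Ccnd3 as rises, beside 7.96% of tested genes that rose and 11.7% that fell (19.6% together). Quantile normalization called the same pair, beside 8.34% that rose and 8.74% that fell (17.1% together). An equal FPKM sum without Cdk8 called 7 members as rises, beside 45.2% that rose and 5.24% that fell (50.5% together). The authors' deposited table called Ccnd2 and Cdkn1a, beside 5.53% of 12393 genes that rose and 14.0% called in either direction. Genes in that table had a median log2 change of -0.0049, so its scale differs from that of the deposited FPKM per library. On the FPKM per library the median log2 change of the 9 members was 0.33.

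**Figure D1:**
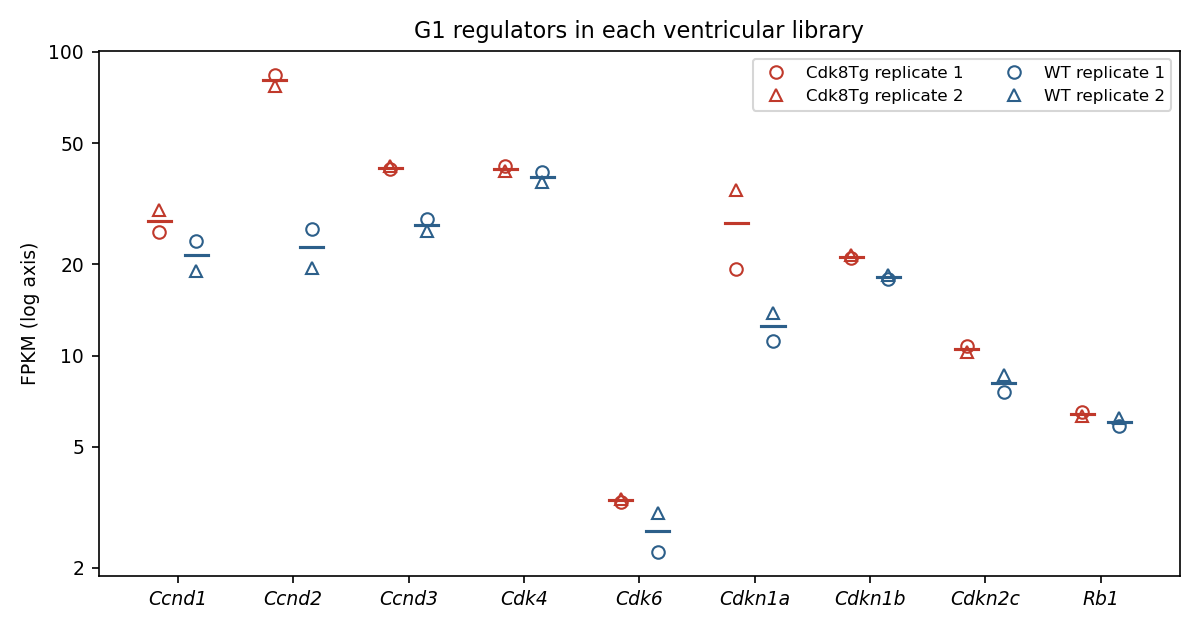
FPKM of the 9 regulators in each library on a log axis, with Cdk8Tg libraries (red) left of WT libraries (blue); horizontal bars are group means of 2 libraries. Ccnd2 shows the widest separation, with 84.1 and 77.4 FPKM in Cdk8Tg and 26.1 and 19.4 FPKM in WT, and Cdkn1a the widest spread within Cdk8Tg.

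Ccnd2, the D cyclin with the largest response, measured 84.1 and 77.4 FPKM in Cdk8Tg replicates 1 and 2, against 26.1 and 19.4 FPKM in WT replicates 1 and 2. In FPKM the Cdk8Tg values were about as close to each other as the WT values were, and the groups lay far apart. On the log2(FPKM + 1) scale the gap between libraries was 0.12 in Cdk8Tg and 0.41 in WT. The group means were 80.8 ± 4.74 FPKM in Cdk8Tg and 22.7 ± 4.71 FPKM in WT (SD over 2 libraries each), a 3.55-fold difference. Its log2 change came to 1.80 ± 0.15 (SE; limma, BH-adjusted p = 0.0041), with a 95% confidence interval of 1.43 to 2.17, and 0.437% of tested genes had a larger rise. The rise was called without any 1 of the 4 libraries, with log2 changes from 1.59 to 2.00. With no filter on low values the call was lost (limma adjusted p = 0.094 over 23847 rows). In the authors' deposited table Ccnd2 was at 92.0 FPKM in Cdk8Tg and 28.8 FPKM in WT, with a q-value of 8.6e-04. On GRCm38 the gene (ENSMUSG00000000184.12) lies on chromosome 6 at 127125162 to 127152193, on the minus strand. Of its 9409 exonic bases, 740 overlap exons of genes on the opposite strand. Among these, 9330179D12Rik was at 0.590 and 0.496 FPKM in Cdk8Tg, against 0.815 and 0.576 FPKM in WT.

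Ccnd3, the D cyclin prominent in lymphoid and striated muscle cells, was at 41.2 and 42.0 FPKM in Cdk8Tg, against 28.3 and 25.7 FPKM in WT. The Cdk8Tg pair was nearly equal and lay above both WT values. Means were 41.6 ± 0.542 FPKM in Cdk8Tg and 27.0 ± 1.84 FPKM in WT (SD over 2 libraries each), a 1.54-fold difference and a log2 change of 0.61 ± 0.086 (SE; limma, BH-adjusted p = 0.011). Without WT replicate 2 the log2 change was 0.54 and the call was lost (limma adjusted p = 0.082), as it was with no filter (0.092). The authors' deposited table gave Ccnd3 47.3 FPKM in Cdk8Tg and 34.2 FPKM in WT (log2 change 0.47), and did not call it (q-value 0.16). After median-of-ratios scaling the log2 change was 0.46, and Ccnd3 was called (limma adjusted p = 0.019). Ccnd3 (ENSMUSG00000034165.16) spans chromosome 17 at 47505051 to 47599691 on the plus strand, and 361 of its 8775 exonic bases overlap Bysl on the other strand. Bysl, a ribosome assembly factor, was at 10.3 and 10.7 FPKM in Cdk8Tg, against 8.24 and 7.67 FPKM in WT, and also rose (log2 change 0.37, limma adjusted p = 0.038).

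RefSeq lists a pair of starts for Ccnd3. The promoter of the downstream start, chr17:47593217-47593516 (GRCm38.p6, plus strand, 250 bases before to 50 after the start), is shown because Ccnd3 is a D cyclin that rose, with capitals marking the GC box GGGCGG on either strand.
Ccnd3: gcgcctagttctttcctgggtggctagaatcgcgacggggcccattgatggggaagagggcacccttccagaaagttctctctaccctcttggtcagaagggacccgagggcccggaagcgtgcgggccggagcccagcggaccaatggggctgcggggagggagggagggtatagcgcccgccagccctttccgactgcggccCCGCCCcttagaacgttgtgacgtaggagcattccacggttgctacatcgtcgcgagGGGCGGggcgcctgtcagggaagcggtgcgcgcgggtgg
It holds 2 such boxes, a word found in 35.7% of the 32851 RefSeq promoters of the same length, and no E2F word (TTTGGCGC or TTTCGCGC, either strand), which 0.813% of them hold.

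Ccnd1, the D cyclin most widely induced by growth factors, was at 25.4 and 30.2 FPKM in Cdk8Tg, against 23.9 and 19.0 FPKM in WT. The lower Cdk8Tg value exceeded the higher WT value by less than either pair differed within itself. Its log2 change of 0.36 ± 0.14 (SE; 95% confidence interval 0.0093 to 0.72) did not pass the test (limma, BH-adjusted p = 0.11). Scaling every library to an equal FPKM sum without Cdk8 gave 0.58 and a call (limma adjusted p = 0.025), but that scale set the median of all genes at 0.32 and called 45.2% of tested genes as rises. On chromosome 7 at 144929931 to 144939925 (minus strand), Ccnd1 (ENSMUSG00000070348.5) shares 1100 of 4709 exonic bases with LTO1 on the opposite strand. LTO1, listed as Oraov1, stood at 11.5 and 11.4 FPKM in Cdk8Tg, against 8.72 and 9.13 FPKM in WT. It was called as a rise (log2 change 0.33, limma adjusted p = 0.044).

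Levels within a library do not depend on the scale between libraries, and they showed a shift in the makeup of D cyclin transcripts. Ccnd2 made up 55.8% and 51.8% of the summed D cyclin FPKM in Cdk8Tg libraries, against 33.3% and 30.3% in WT libraries. Ccnd3 made up 27.3% and 28.1% in Cdk8Tg, against 36.1% and 40.1% in WT, and Ccnd1 made up 16.9% and 20.2% in Cdk8Tg, against 30.6% and 29.7% in WT. In FPKM, the order Ccnd2, Ccnd3, Ccnd1 held in Cdk8Tg with no overlap between neighbours, whereas in WT Ccnd3 was highest in each library and the ranges of Ccnd2 overlapped with those of Ccnd3 and of Ccnd1. Among all 9 genes Ccnd2 was the highest in both Cdk8Tg libraries and Cdk4 the highest in both WT libraries, and Cdk6 was the lowest in all 4. The mean share of Ccnd2 was 53.8 ± 2.86% in Cdk8Tg and 31.8 ± 2.14% in WT (SD over 2 libraries each), a difference of 22.0 percentage points. An exact two-sided permutation test gave p = 0.333 for each of the 3 shares, the smallest p that 2 libraries against 2 allow. Summed D cyclin levels were 150.8 and 149.6 FPKM in Cdk8Tg and 78.2 and 64.1 FPKM in WT.

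**Figure D2:**
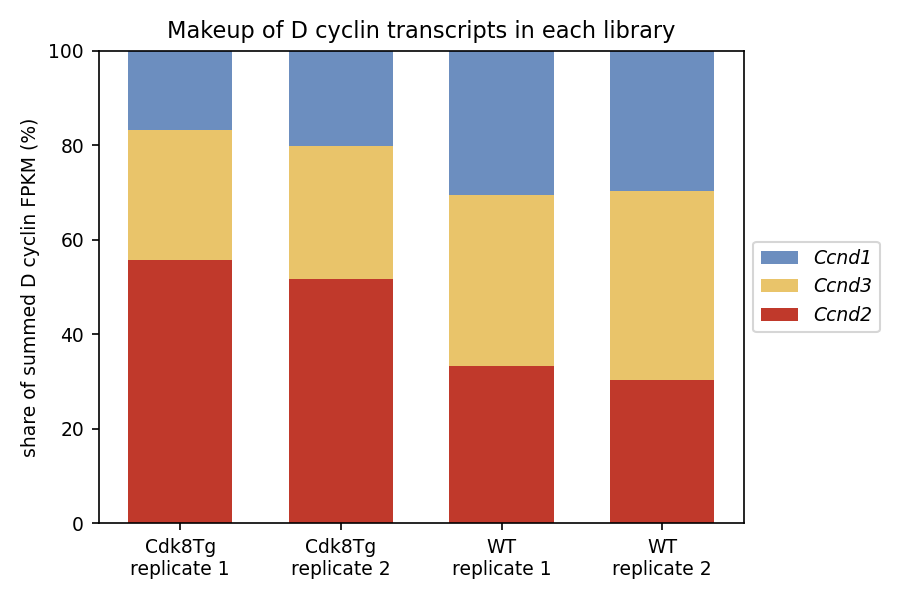
Share of each D cyclin in the summed D cyclin FPKM of a library, in percent, with the Cdk8Tg libraries left of the WT libraries. The Ccnd2 segment takes 55.8% and 51.8% in Cdk8Tg and 33.3% and 30.3% in WT.

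The kinase genes did not pass the test. Cdk4, the main D cyclin partner by level here, was at 41.9 and 40.6 FPKM in Cdk8Tg, against 40.2 and 37.2 FPKM in WT. The pairs nearly touched, with a log2 change of 0.092 ± 0.083 (SE; limma, BH-adjusted p = 0.43) and a 95% confidence interval of -0.11 to 0.30. After median-of-ratios scaling the change was -0.052, the groups overlapped and the adjusted p was 0.68 (limma). Cdk6, its paralog, was far lower, at 3.30 and 3.37 FPKM in Cdk8Tg, against 2.26 and 3.02 FPKM in WT. WT replicate 1 lay lowest and WT replicate 2 close to the Cdk8Tg pair. Its log2 change was 0.26 ± 0.14 (SE; limma, BH-adjusted p = 0.21), with an interval of -0.087 to 0.61. Cdk4 exceeded Cdk6 by 12.7 and 12.0 times in Cdk8Tg and by 17.8 and 12.3 times in WT. Per FPKM of the summed kinases there were 3.33 and 3.40 FPKM of D cyclins in Cdk8Tg, against 1.84 and 1.59 FPKM in WT, with no overlap (exact permutation p = 0.333, the smallest possible).

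Cdk4 (ENSMUSG00000006728.12) lies on chromosome 10 at 127063534 to 127067920 on the plus strand, and Cdk6 (ENSMUSG00000040274.11) on chromosome 5 at 3341485 to 3531008 on the plus strand. The promoter of Cdk4, chr10:127063285-127063584 (RefSeq, GRCm38.p6, plus strand), is shown for a kinase whose level was nearly alike in all 4 libraries, with capitals on the E-box CACGTG, the word that Myc and related factors bind.
Cdk4: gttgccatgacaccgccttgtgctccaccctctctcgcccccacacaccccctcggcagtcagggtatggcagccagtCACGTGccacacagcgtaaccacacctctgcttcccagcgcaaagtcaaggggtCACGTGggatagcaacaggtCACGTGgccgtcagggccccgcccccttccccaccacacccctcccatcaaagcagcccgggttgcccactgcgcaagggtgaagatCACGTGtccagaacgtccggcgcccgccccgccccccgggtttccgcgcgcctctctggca
The 4 E-boxes begin 172, 118, 98 and 11 bases before the start. An E-box occurs in 7.15% of all promoters of this length and 4 or more in 0.0244%. Myc itself was at 1.35 and 2.54 FPKM in Cdk8Tg, against 1.74 and 1.97 FPKM in WT, ranges that overlapped (log2 change 0.015). Of the 3249 exonic bases of Cdk4, 641 overlap exons of Tspan31 on the opposite strand, which was at 37.1 and 38.9 FPKM in Cdk8Tg, against 33.0 and 32.2 FPKM in WT. No source used here gives the strand setting of the authors' counting, so reads of such pairs may not have been told apart.

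Among the inhibitors, Cdkn1a rose. This Cip/Kip gene, a classical target of p53, was at 19.3 and 35.1 FPKM in Cdk8Tg, against 11.2 and 13.8 FPKM in WT. Cdk8Tg replicate 2 stood well above replicate 1, and both exceeded both WT libraries. Means were 27.2 ± 11.2 FPKM in Cdk8Tg and 12.5 ± 1.82 FPKM in WT (SD over 2 libraries each), a 2.18-fold difference and a log2 change of 1.02 ± 0.27 (SE; limma, BH-adjusted p = 0.049), and 1.93% of tested genes had a larger rise. The call was close to the threshold, and was kept under 6 alternatives and lost under 9. It was lost after median-of-ratios scaling (log2 change 0.87, limma adjusted p = 0.074), with quantile normalization (0.079) and without Cdk8Tg replicate 2 (log2 change 0.60, limma adjusted p = 0.069). It was also lost without WT replicate 1 (limma adjusted p = 0.18) or WT replicate 2 (0.14), and kept without Cdk8Tg replicate 1 (log2 change 1.43, limma adjusted p = 0.0085). Cdk8Tg replicate 2 is also the library in which all 4 fat cell markers were highest, with Adipoq at 3.08 FPKM against 0.071, 0.310 and 0.062 FPKM in Cdk8Tg replicate 1 and the WT libraries. Ucp1, a brown fat gene, was at 10.7 FPKM there and listed at 0 in the other 3 libraries. Of the 8 smooth muscle and pericyte markers, Acta2, Myh11 and Tagln were highest in Cdk8Tg replicate 2, and Rgs5 and Kcnj8 were lowest there. The part of either list in the Cdkn1a value was not tested. In the authors' deposited table Cdkn1a was at 30.8 FPKM in Cdk8Tg and 15.9 FPKM in WT and was called, with a q-value of 8.6e-04. Ccnd2 and Cdk8 had the same q-value in that table, so it does not rank the strength of these calls.

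Cdkn1a (ENSMUSG00000023067.14) lies on chromosome 17 at 29090976 to 29100727 on the plus strand and has a pair of RefSeq starts. Of its 3553 exonic bases, 273 overlap AC167363.2 on the opposite strand. The promoter of the upstream start, chr17:29090729-29091028 (GRCm38.p6, plus strand), is shown because it carries a match to the p53 response element, in capitals, and that of the downstream start, chr17:29093519-29093818, for comparison, with GC boxes (GGGCGG) in capitals.
Cdkn1a upstream start: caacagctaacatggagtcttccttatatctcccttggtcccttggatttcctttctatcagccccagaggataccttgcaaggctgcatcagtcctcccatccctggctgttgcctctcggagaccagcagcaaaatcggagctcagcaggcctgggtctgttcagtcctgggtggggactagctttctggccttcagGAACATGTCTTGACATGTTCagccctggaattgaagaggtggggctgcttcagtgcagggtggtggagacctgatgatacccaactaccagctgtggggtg
Cdkn1a downstream start: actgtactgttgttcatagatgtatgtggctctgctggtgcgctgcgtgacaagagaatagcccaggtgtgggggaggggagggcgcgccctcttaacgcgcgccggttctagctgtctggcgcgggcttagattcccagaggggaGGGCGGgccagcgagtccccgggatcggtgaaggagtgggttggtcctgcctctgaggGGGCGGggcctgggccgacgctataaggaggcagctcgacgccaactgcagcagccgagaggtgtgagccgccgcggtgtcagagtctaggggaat
The match begins 51 bases before the upstream start. It was defined as both half-sites of the p53 consensus, 0 or 1 base apart, with at most 1 mismatch outside their cores, and 29 of the 32851 promoters (0.0883%) hold such a match. None of the 13 other p53 list genes with a promoter in the RefSeq table does, which says only that these letters are not in those windows.

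The p53 list shows how the other genes of that pathway stood. Of 16 genes (p53 itself, Trp53, and 15 of its targets), 6 rose and 2 fell, beside 16.9% and 7.98% of all tested genes, and their median log2 change was 0.43, against 0.13 over all tested genes. After median-of-ratios scaling 4 rose and 3 fell, beside 7.96% and 11.7% of all tested genes on that scale. Phlda3, a repressor of Akt signalling, was at 34.9 and 35.0 FPKM in Cdk8Tg, against 7.42 and 6.13 FPKM in WT, a log2 change of 2.21 ± 0.11 (SE; limma, BH-adjusted p = 0.0013). Mdm2, the ubiquitin ligase that degrades p53, rose by 0.51, the cell death gene Bax by 0.51 and the receptor gene Eda2r by 0.81. Sesn2 and Bbc3 rose by 0.64 and 0.70, and were picked out with their values in view. Neither was called after median-of-ratios scaling (limma adjusted p = 0.058 and 0.071). Perp and Sesn1 fell by 0.74 and 1.08 on the log2 scale. Ccng1, picked out with its values in view, was at 224.8 and 221.5 FPKM in Cdk8Tg, against 259.2 and 259.4 FPKM in WT. It was not called (log2 change -0.22, limma adjusted p = 0.099), but fell after median-of-ratios scaling (limma adjusted p = 0.035). Trp53 was at 13.6 and 12.0 FPKM in Cdk8Tg, against 11.0 and 7.97 FPKM in WT (log2 change 0.41, limma adjusted p = 0.11). Gdf15, a stress cytokine picked out with its values in view, was at 1.81 and 9.98 FPKM in Cdk8Tg, against 0.217 and 0.863 FPKM in WT, and was not called (log2 change 1.88, limma adjusted p = 0.081). As with Cdkn1a, Cdk8Tg replicate 2 was its highest library.

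Cdkn1b and Cdkn2c were steadier. Cdkn1b, the Cip/Kip inhibitor of resting cells, was at 20.9 and 21.4 FPKM in Cdk8Tg, against 17.9 and 18.4 FPKM in WT. Each pair was tight, and the gap between groups was wider than within them. The log2 change was small, 0.21 ± 0.078 (SE; 95% confidence interval 0.016 to 0.41; limma, BH-adjusted p = 0.10), and 0.071 after median-of-ratios scaling. Cdkn2c, an Ink4 inhibitor, was at 10.7 and 10.2 FPKM in Cdk8Tg, against 7.61 and 8.64 FPKM in WT. The groups did not overlap, and the log2 change of 0.33 ± 0.098 (SE; interval 0.088 to 0.58) missed the threshold (limma, BH-adjusted p = 0.060). Testing only genes with a mean of at least 5 FPKM brought it to an adjusted p of 0.049 (limma). Summed D cyclins exceeded the summed 3 inhibitors by 2.96 and 2.24 times in Cdk8Tg and by 2.13 and 1.57 times in WT. On GRCm38, Cdkn1b (ENSMUSG00000003031.14) lies on chromosome 6 at 134920401 to 134925513 (plus strand) and Cdkn2c (ENSMUSG00000028551.14) on chromosome 4 at 109660876 to 109667189 (minus strand), and exons of neither overlap another annotated gene.

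Rb1, the substrate of these kinases, was at 6.51 and 6.33 FPKM in Cdk8Tg, against 5.88 and 6.24 FPKM in WT. All 4 values lay close together. The log2 change was 0.072 ± 0.092 (SE; limma, BH-adjusted p = 0.58) with an interval of -0.16 to 0.30, and -0.056 after median-of-ratios scaling. Rb1 (ENSMUSG00000022105.6) lies on chromosome 14 at 73183673 to 73325822 (minus strand) and shares 896 of 6015 exonic bases with Rcbtb2 and Lpar6 on the other strand. Its relative Rbl2, the pocket protein of quiescent cells, was at 13.7 and 14.6 FPKM in Cdk8Tg, against 11.3 and 10.8 FPKM in WT, and rose by 0.33 (limma adjusted p = 0.045).

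**Figure D3:**
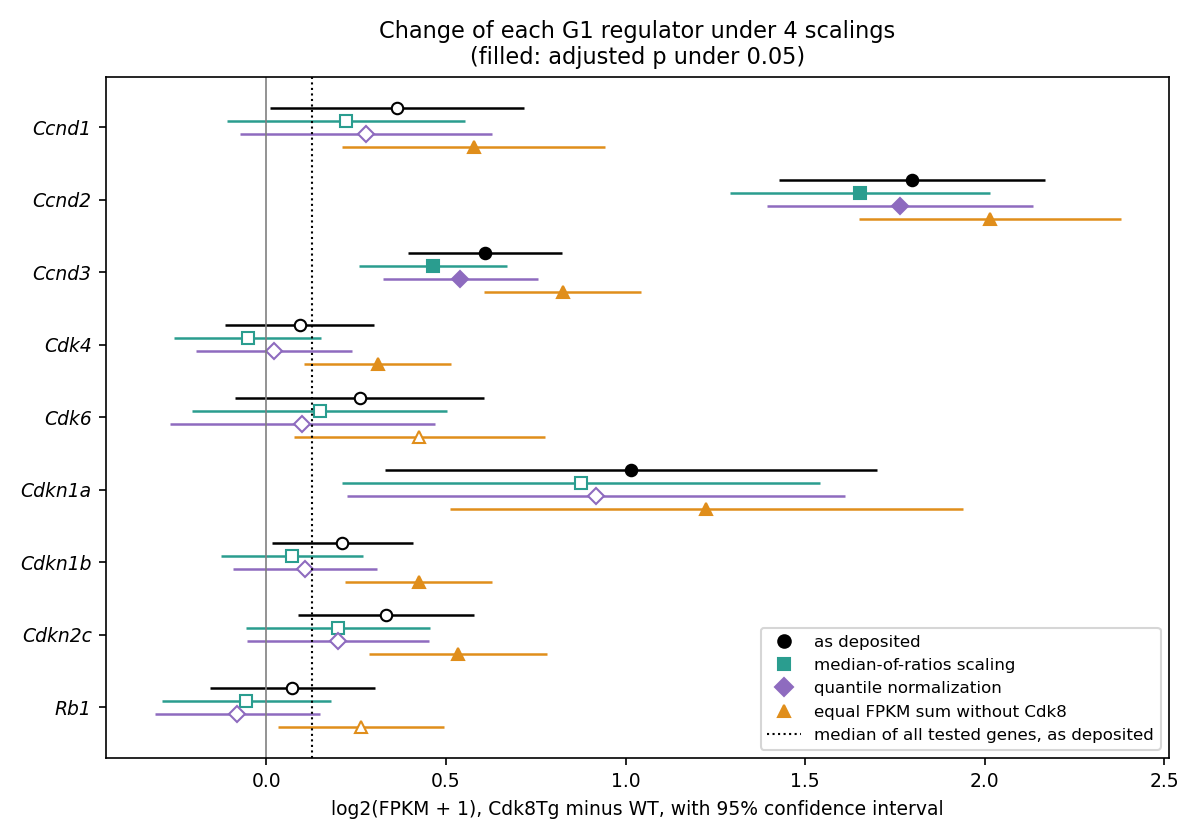
Difference of log2(FPKM + 1), Cdk8Tg minus WT, for each regulator with its 95% confidence interval under 4 scalings; filled symbols have an adjusted p under 0.05, and the dotted line is the median of all tested genes as deposited, 0.13. Ccnd2 and Ccnd3 are filled under all 4 scalings, Cdkn1a under 2 of them.

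Of 40 other genes of the G1 pathway, 33 were tested, 7 rose and 2 fell, near the 16.9% and 7.98% of all tested genes. Their median log2 change was 0.17, against 0.13 over all tested genes. After median-of-ratios scaling 1 rose, Cks1b, and 3 fell, beside 7.96% and 11.7% of tested genes. The largest changes were falls. Fbxo31, an F-box protein known in human cells to direct cyclin D1 to degradation, was at 7.81 and 8.25 FPKM in Cdk8Tg, against 19.2 and 25.1 FPKM in WT, a log2 change of -1.34 ± 0.14 (SE; limma, BH-adjusted p = 0.0063). Tfdp2, which pairs with E2F proteins to bind DNA, was at 8.60 and 8.26 FPKM in Cdk8Tg, against 17.3 and 22.9 FPKM in WT, a log2 change of -1.15 ± 0.14 (limma adjusted p = 0.0082). Both kept their calls after median-of-ratios scaling. The other fall on that scale was Cdc37 (log2 change -0.38, limma adjusted p = 0.033), which was not called on the deposited values (limma adjusted p = 0.086). Cdc37 was at 56.3 and 52.5 FPKM in Cdk8Tg, against 64.6 and 63.7 FPKM in WT. Tfdp1, the paralog of Tfdp2, was at 15.8 and 16.9 FPKM in Cdk8Tg, against 18.0 and 17.3 FPKM in WT (log2 change -0.10, not called).

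Among the rises, Cks1b, a small subunit that binds cyclin-dependent kinases, was at 8.25 and 11.5 FPKM in Cdk8Tg, against 5.42 and 5.61 FPKM in WT, a log2 change of 0.72 (limma adjusted p = 0.029). E2f3, an activating E2F, rose by 0.66 and E2f6, a repressive one, by 0.39. Dyrk1a, a kinase that phosphorylates D cyclins and the DREAM complex, and Gsk3b, a kinase that marks cyclin D1 for export and degradation, rose by 0.45 and 0.38. Fbxo4, named after its values were seen, rose by 0.45. After median-of-ratios scaling Cks1b was still called, and E2f3, E2f6, Dyrk1a, Gsk3b, Fbxo4 and Rbl2 were not called. The E-type cyclin Ccne1 and the kinase Cdk2 were not called. Ccne1 was at 1.56 and 1.61 FPKM in Cdk8Tg, against 0.995 and 0.845 FPKM in WT (limma adjusted p = 0.068), and Cdk2 at 10.4 and 9.72 FPKM in Cdk8Tg, against 10.3 and 8.92 FPKM in WT. The remaining inhibitors overlapped between groups where they were tested, with Cdkn1c at 9.97 and 10.6 FPKM in Cdk8Tg, against 8.04 and 10.1 FPKM in WT, and Cdkn2d at 14.0 and 15.3 FPKM in Cdk8Tg, against 15.2 and 14.4 FPKM in WT.

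Of 30 genes of S phase and mitosis, many of them targets of E2F, 27 were tested, 1 rose (Mcm6, a subunit of the replicative helicase, by 0.45) and 1 fell (Gmnn, which blocks relicensing of origins, with a log2 change of -0.36), beside 16.9% and 7.98% of all tested genes. Their median log2 change was 0.23, against 0.13 over all tested genes. In 12 the Cdk8Tg libraries both lay above the WT libraries and in 2 both lay below, beside 49.2% and 21.1% of tested genes. After median-of-ratios scaling Gmnn fell and Mcm6 was not called (limma adjusted p = 0.057). Mki67, the proliferation antigen, was at 2.69 and 3.66 FPKM in Cdk8Tg, against 3.69 and 1.94 FPKM in WT, and Ccnb2, a mitotic cyclin, at 2.14 and 2.89 FPKM in Cdk8Tg, against 2.69 and 0.718 FPKM in WT. The groups overlapped for both genes. Ccnb1, another mitotic cyclin, was at 1.61 and 2.60 FPKM in Cdk8Tg, against 1.38 and 0.489 FPKM in WT (log2 change 0.70, limma adjusted p = 0.12), and Top2a, a topoisomerase of dividing cells, at 4.25 and 5.57 FPKM in Cdk8Tg, against 4.10 and 2.12 FPKM in WT (0.56, limma adjusted p = 0.16). For these the groups did not overlap, and neither gene was called. Mki67, Ccnb2, Ccnb1 and Top2a were picked out with their values in view, and WT replicate 2 was the lowest library for each.

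**Figure D4:**
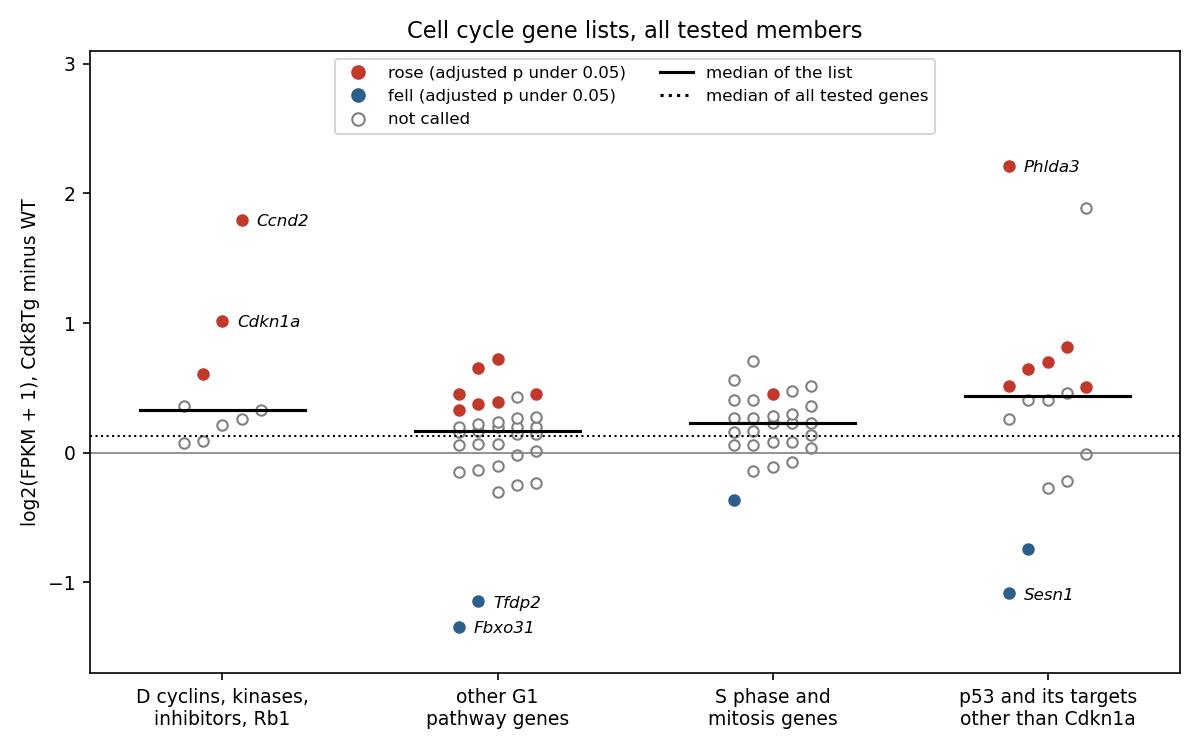
Difference of log2(FPKM + 1), Cdk8Tg minus WT, of every tested gene in 4 lists; red and blue points rose or fell with an adjusted p under 0.05, open points were not called, bars are list medians and the dotted line is the median of all tested genes. The list medians are 0.33, 0.17, 0.23 and 0.43 from left to right.

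Profiles over the 4 libraries were compared by the distance of log2(FPKM + 1), centred on the WT mean, among 11050 candidate genes. Closest to Ccnd2 were Hist1h2bc, a histone H2B gene, Bend4 and Fbn2, a fibrillin, at distances of 0.066, 0.21 and 0.25. Hist1h2bc stood at 196 and 180 FPKM in Cdk8Tg, against 60.8 and 48.2 FPKM in WT. Cdkn1a lay closest to Efhd2, Rasl11b and Ttll7 (0.088, 0.12 and 0.14), and Ccnd3 to Polr2a, the largest subunit of RNA polymerase II, Rpusd1 and Atp6v0a2 (0.029, 0.029 and 0.033). Over 4 libraries such likeness is a description, since many genes share a separation of the groups.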

How the data were processed

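The 4 libraries were analysed, grouped by sample title into 2 Cdk8Tg and 2 WT. The authors deposited FPKM per gene and library, and a Cuffdiff table with FPKM per group, a p-value and a q-value. The submitters' processing notes name TopHat (1.0.0), Cufflinks, Cuffdiff and the build mm10. Other versions, the annotation and how libraries were scaled are not given.

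FPKM are not counts, so log2(FPKM + 1) values were compared by limma 3.58.1 in R 4.3.3, with a variance trend and 2 residual degrees of freedom. Rows averaging at least 1 FPKM over the 4 libraries were kept (11888). Adjusted p-values (Benjamini-Hochberg over all these rows) under 0.05 were called. The log2(FPKM + 1) scale understates the change of low genes. The procedure was checked on simulated data, where 19 of 11688 unchanged genes were called. Beside the true calls given next, these 19 false calls are a larger share than the threshold of 0.05 aims at. Genes with a true log2 change of 1 were called in 43 of 50 cases, of -1 in 37 of 50 and of 2 in 50 of 50. With a true log2 change of 0.5 only 4 of 50 were called. In that check 11688 of the 11888 genes were unchanged, whereas 24.9% of the tested genes were called in the 4 libraries. The rates of the check may therefore differ from those in the libraries. How often changes of 0.5 are called in the libraries was not tested, so a missing call says little about changes that small. The 9 genes, the lists and the alternatives were chosen with earlier results of these data known. Every member is named. Of each list, up to 4 called genes per direction by smallest p, and the genes nearest in role, are named. For the 3 called members with the largest change, the 3 nearest profiles are given, without symbols that are repeated, clone-based, predicted or non-coding. Myc, Tfdp1, Cdc37, Skp2, Trp53, Ccng1, Rgs5, Cspg4, Nppa, Sln, Ucp1, Kcnj8 and Tagln fall outside this rule and were chosen with their values in view.

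Depth was estimated from steps between FPKM values under 0.1 in 322 to 346 genes with 1 annotated transcript over 800 bases, taking 200 bases off its length. Loci come from GENCODE (release M21, GRCm38), and promoters from RefSeq (GRCm38.p6), where 6 of the 9 genes matched. Ccnd1, Ccnd2 and Rb1 did not. The authors' deposited loci of Ccnd2 and Ccnd3 run to 127212419 and 47611492, past the ends given here, and other loci differ too. The exon overlaps given may therefore not be those of the gene models behind the FPKM. Deviations of same-numbered libraries from their group means correlated at -0.026, so the numbers were not taken as pairs. Alternatives were other pseudocounts, filters, scalings and variance models, a replicate block, each library left out, and the authors' calls.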

Additional observations from a re-analysis of the deposited data

How the results depend on the processing

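Of the 9 regulators, Ccnd2 was called under all alternatives except with no filter on low values (log2 change 1.80, limma adjusted p = 0.094), where 279 of 23847 rows and 0 of the 9 regulators, 0 other G1 pathway genes and 0 S phase genes were called. With the filter, 6 of the 9 had an unadjusted p under 0.05 and were higher in Cdk8Tg, beside 29.4% of tested genes. Ccnd3 lost its call there (0.61) and in the authors' deposited table (0.47), and without single libraries it ranged from 0.54 to 0.68. Cdkn1a lost its call with a pseudocount of 5 (0.84), no filter, no variance trend or robust variance (1.02 each), median-of-ratios scaling (0.87) and quantile normalization (0.92), and ranged from 0.60 to 1.43 without single libraries. Cdkn2c gained a call with a minimum of 5 FPKM (0.33). An equal FPKM sum without Cdk8 called 5999 genes and 7 regulators, adding Ccnd1 (0.58), Cdk4 (0.31), Cdkn1b (0.42) and Cdkn2c (0.53), with 16 other G1 pathway and 5 S phase genes. The sign of Cdk4 changed with median-of-ratios scaling (-0.052) and in the authors' deposited table (-0.065), and that of Rb1 there too (-0.056 and -0.075) and with quantile normalization (-0.081), in each case with no call.

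The authors' deposited table called 1730 genes, 3 other G1 pathway genes and 0 S phase genes. Other G1 pathway calls were 4 with median-of-ratios scaling and 3 with quantile normalization, against 9 as reported, and S phase calls were 1 with either scaling and 1 without a variance trend, against 2. Without single libraries, calls ranged from 287 to 2380 for all genes, with 287 without WT replicate 2, 628 without WT replicate 1 and 1304 without Cdk8Tg replicate 2, from 1 to 3 for the 9 regulators, from 2 to 6 for other G1 pathway genes and from 0 to 1 for S phase genes. A lone library is then assumed to vary like the other group. With the replicate number as a block, 2825 of 11888 tested genes were called. So were 3 of 9 regulators, 7 of 33 other G1 pathway genes and 1 of 27 S phase genes. The replicate numbers do not pair the samples. The D cyclin shares, which a factor per library cannot move, kept their direction under quantile normalization. Leaving out a library could not reverse that direction, because the shares did not overlap between the groups. Of the 8 fibroblast markers, 6 rose as reported, 4 with median-of-ratios scaling, 5 with quantile normalization and 8 with an equal FPKM sum. The shares of all tested genes that rose were 16.9%, 7.96%, 8.34% and 45.2%. Of the 8 cardiomyocyte markers, 6, 7, 2 and 4 fell in the same order, beside 7.98%, 11.7%, 8.74% and 5.24% of tested genes. The count of members with separated groups after median-of-ratios scaling was chosen after seeing the data. The cause of these shifts was not tested.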

Other observations

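Several cell cycle genes were measured below a mean of 1 FPKM and were not tested. Cdkn2b, an Ink4 inhibitor, was at 0.431 and 0.382 FPKM in Cdk8Tg, against 0.162 and 0.107 FPKM in WT. Cdkn2a, its neighbour in the genome and the other main senescence-linked inhibitor, was at 0.099 and 0.115 FPKM in Cdk8Tg, against 0.097 and 0.087 FPKM in WT. Ccne2, an E-type cyclin, was at 0.527 and 0.871 FPKM in Cdk8Tg, against 1.02 and 0.807 FPKM in WT, and Skp2, which targets Cdkn1b protein for degradation, was at 0.746 and 0.894 FPKM in Cdk8Tg, against 0.782 and 0.503 FPKM in WT. At these levels each value rests on few fragments.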
